A study of Homo sapiens with 6 samples.

Results

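The mRNA levels of the eIF2-alpha kinases were examined in PC-3 cells, an androgen-independent human prostate cancer line, after inhibition of glutamine transport. The 4 genes were taken by name as the complete human kinase family: EIF2AK1, which encodes the heme-regulated inhibitor HRI; EIF2AK2, which encodes the RNA-dependent protein kinase PKR; EIF2AK3, which encodes the endoplasmic reticulum kinase PERK; and EIF2AK4, which encodes GCN2. All 4 were among the 19491 genes listed in the tables. They were picked by name and not by a measured value, although earlier results of these data were known at the time. Cells were left untreated (control), or were exposed for 48 h to 1 mM GPNA (L-gamma-glutamyl-p-nitroanilide) or 10 mM BenSer (benzylserine), which are both inhibitors of the glutamine transporter ASCT2. According to the study, BenSer also inhibits the leucine transporter LAT1 in oocytes and appears to have effects not mediated by ASCT2. All groups came from this 1 cell line, grown in serum-containing RPMI medium, and the labels describe no genetic alteration in any of them. The study's methods state that control cells received the vehicle, which was water for both compounds. The doses differed 10-fold, so that the values of both treatments are given side by side. A difference between them compares neither matched doses nor compounds known to have the same targets.

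The kinases share 1 substrate, the alpha subunit of translation initiation factor eIF2. Phosphorylated eIF2 blocks its own nucleotide exchange factor, eIF2B, which lowers general protein synthesis and favours translation of a few mRNAs such as ATF4, a transcription factor of the amino acid and stress responses. Each kinase reads a different stress: GCN2 binds uncharged tRNA and responds to amino acid shortage, PERK responds to unfolded protein in the endoplasmic reticulum, PKR binds double-stranded RNA and is itself encoded by an interferon-stimulated gene, and HRI responds to heme deficiency and mitochondrial stress. The activity of these proteins is set mainly by binding and autophosphorylation. The mRNA levels reported here do not measure it.

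The tables give reads per 1000000 reads of the library (CPM), and the whole reads behind each value were recovered. The 6 labelled libraries, 2 per group, held 23077986 to 32178154 reads, of which 51.6% to 52.7% fell on listed genes. BenSer libraries were the deepest and control libraries the shallowest. Chi-square per degree of freedom between 2 libraries was 1.05 to 1.06 within a group, close to pure read sampling, and 5.50 to 20.7 across groups. Each group was thus treated as 1 sample, and the differences below have neither a replicate check nor a p-value. Differences are in log2 of the mean CPM plus 1, with exact 95% counting intervals on the merged reads, which cover counting error only. The epithelial markers KRT8, KRT18 and EPCAM lay between 91.2 and 292 CPM in every library. Of the prostate luminal markers, TMPRSS2 lay between 16.4 and 24.3 CPM, while KLK3 has no row in the tables. Of the markers of other cell types, COL1A1 lay between 3.65 and 6.07 CPM, and PTPRC, PECAM1 and COL1A2 have no row.

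EIF2AK2 was the kinase whose level differed most between the labelled libraries of the groups. Its mean was 114 CPM in untreated cells, 158 CPM after GPNA and 196 CPM after BenSer. EIF2AK3, by far the least abundant of the family, was higher by a smaller margin with each inhibitor, EIF2AK4 was slightly lower with each, and EIF2AK1 lay within 5.05% of its control level with either. All 4 genes passed the filter of a mean of 5 reads in at least 1 group.

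**Figure D1:**
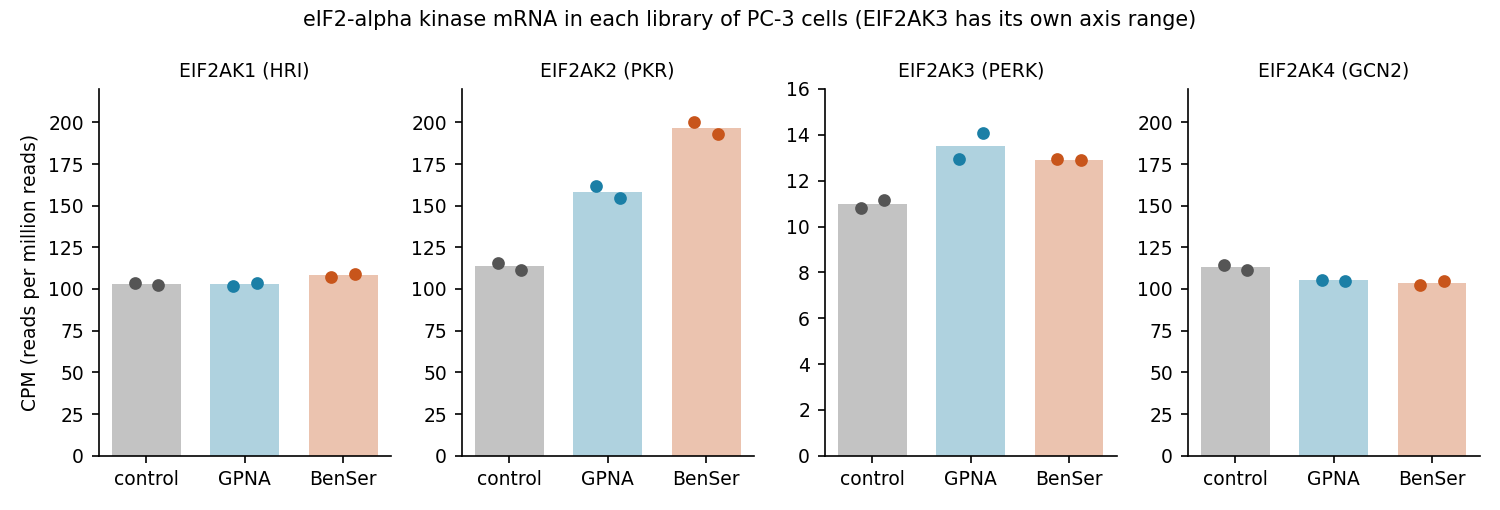
CPM (reads per 1000000 reads) of each eIF2-alpha kinase in every library. Points are the 2 libraries of a group and bars their mean; EIF2AK3 has its own axis range. EIF2AK2 stands at 111 and 116 CPM in the control, at 155 and 162 CPM with GPNA and at 193 and 200.01 CPM with BenSer, while EIF2AK1 and EIF2AK4 stay between 102 and 115 CPM in every library.

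The reference sequence around the start of EIF2AK2 is shown because this kinase had the largest difference of the 4 and its values are later set beside those of interferon-stimulated genes. Promoter windows of 300 bases (250 before and 50 after the start) were taken from RefSeq on GRCh38.p14 and placed on GRCh37 by an exact match. RefSeq windows were matched for 3 of the 4 kinases (EIF2AK2, EIF2AK3 and EIF2AK4) and for 9 of 12 interferon-stimulated genes. The core of the interferon-stimulated response element (GAAA, any 2 bases, GAAA) was searched on both strands. It was found in 3.57% of 35116 windows of this length, and in 1 of the 3 kinase windows, that of EIF2AK2, where it runs from 6 bases before the start to base 4 after it. On GRCh37 this core is chr2:37384120-37384129 on the minus strand. In GENCODE it lies wholly within the annotated 5′ untranslated region of 4 of the 14 EIF2AK2 transcripts, which start further upstream. It lies partly in that of 2 others, and transcripts without an annotated untranslated region could not be counted. The 26 bases around it are given first, followed by windows of 4 interferon-stimulated genes, each 5′ to 3′ on the strand of its gene with the core in capitals. In IFIT1 the core is on the opposite strand and therefore reads as its reverse complement.
EIF2AK2 (chr2:37384112-37384137, minus strand): tccaagggGAAAACGAAActgagaac
OAS3 (chr12:113376259-113376284, plus strand): ccgggcggGAAAACGAAAccagaaat
MX1 (chr21:42792488-42792513, plus strand): gcagaaatGAAACCGAAActgaattg
ISG15 (chr1:948762-948787, plus strand): gggaaaggGAAACCGAAActgaagcc
IFIT1 (chr10:91152269-91152294, plus strand): ctttccccTTTCGGTTTCcctaggtt
The EIF2AK2 core had the same letters as 1 of the 12 cores in the interferon-stimulated gene windows, that of OAS3 shown above, which begins 12 bases before its start. Cores were found in 6 of the 9 windows (MX1, IFIT1, IFIT3, OAS3, ISG15 and IFIH1). The windows printed above are a selection. OAS3, ISG15 and IFIT1 each held another core with other letters, and the IFIT3 and IFIH1 cores are not shown. The windows of OAS1, IRF9 and DDX58 held none of these letters.

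The other motifs searched were boxes of the general factor NF-Y (CCAAT), found in 34.6% of all windows, the endoplasmic reticulum stress element (CCAAT, any 9 bases, CCACG, which contains such a box), found in 0.0769%, and the core of the amino acid response element bound by ATF4 and its partners (TGATGNAA), found in 3.62%. The EIF2AK3 window (chr2:88926933-88927232, minus strand) held 4 NF-Y boxes, between 232 and 53 bases before the start. The EIF2AK2 window held 2, beginning 87 and 77 bases before it, and the EIF2AK4 window (chr15:40226066-40226365, plus strand) held none. Neither the endoplasmic reticulum stress element nor the amino acid response core was found in any of the 3 kinase windows. These matches describe letters of the reference sequence, and binding was not measured.

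**Figure D2:**
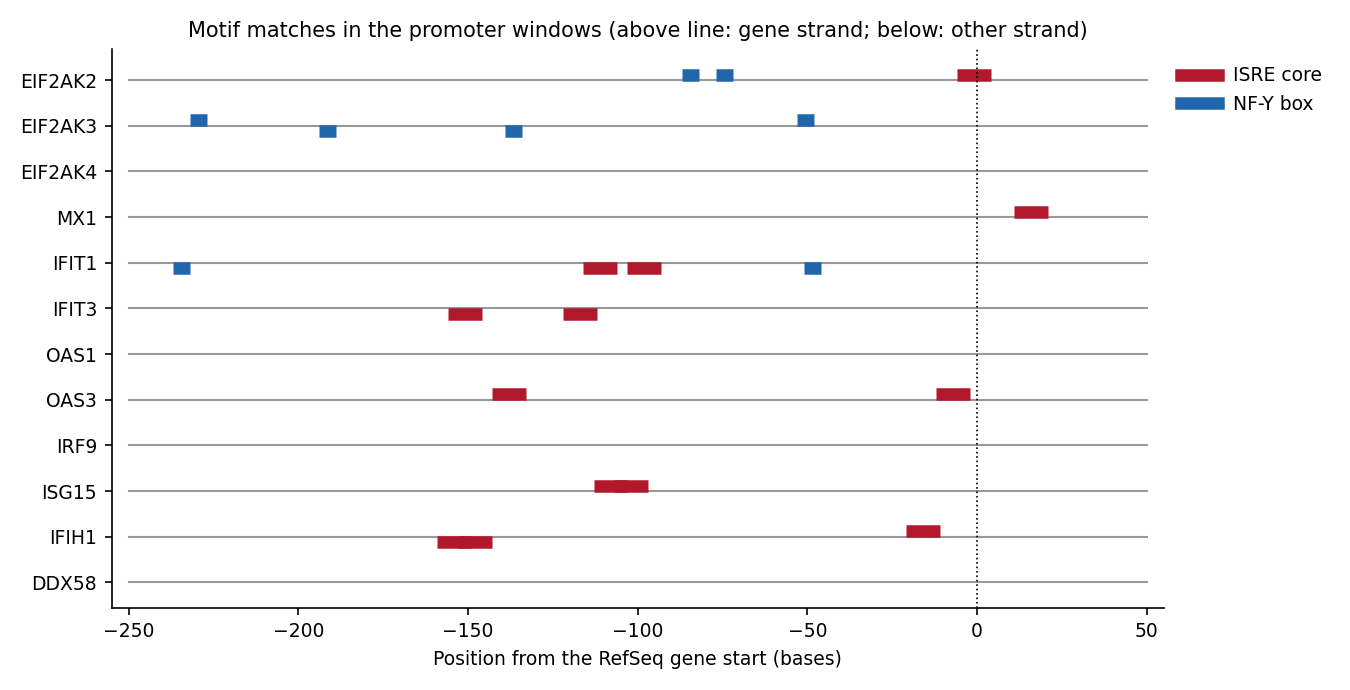
Motif matches in the 300-base RefSeq promoter windows of 3 kinases and 9 interferon-stimulated genes; the x axis is the position from the gene start in bases, and marks above or below a line are on the strand of the gene or the other strand. Among the kinases, a response element core (red) is present only in EIF2AK2, at its start, and the windows of 6 of the 9 interferon-stimulated genes hold at least 1.

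EIF2AK2 (ENSG00000055332) lies on chr2:37326353-37384665, minus strand, of GRCh37, with 18 merged exons. Its reads numbered 2683 and 2573 in the control libraries, 4172 and 3942 in the GPNA libraries, and 6436 and 6160 in the BenSer libraries. As CPM these were 116 and 111 (control), 162 and 155 (GPNA), and 200.01 and 193 (BenSer). The groups did not overlap, and the order control, GPNA, BenSer held for every choice of library. Against the control, the log2 difference was 0.48 with GPNA (95% counting interval 0.43 to 0.53), a 1.39-fold ratio of CPM. With BenSer it was 0.79 (0.74 to 0.83), a ratio of 1.73. Over the 4 pairings of a treated with a control library, the log2 difference ranged from 0.42 to 0.53 with GPNA and from 0.73 to 0.84 with BenSer. EIF2AK2 had 134th place from the top among 18828 genes with GPNA and 173rd place among 18976 genes with BenSer. By CPM, it stood at rank 774 of all listed genes in control cells, rank 429 under GPNA and rank 300 under BenSer. The spread between the libraries of a group was small beside these differences, as library 1 exceeded library 2 by a ratio of 1.04 in each group. Further value columns of the tables match no sample label and were not analysed. When the tables were opened, EIF2AK2 in those columns was seen not to follow the direction of the labelled libraries throughout. The study's methods describe more replicates per group than are labelled, and whether these columns hold them is not known. The differences of 0.48 and 0.79 therefore describe the labelled libraries only, and whether they hold in other cultures is not shown. The same limit applies to the other kinases and to every gene list below, since their values also come from these libraries alone.

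EIF2AK3 (ENSG00000172071; chr2:88856259-88991036, minus strand, 21 merged exons) had 251 and 257 reads in the control libraries, 334 and 358 in the GPNA libraries, and 416 and 412 in the BenSer libraries. In CPM the control libraries were at 10.8 and 11.1, the GPNA libraries at 12.9 and 14.1, and the BenSer libraries both at 12.9. Both treated groups lay above both control libraries and lay beside each other. The log2 difference against the control was 0.28 with GPNA (0.12 to 0.43) and 0.22 with BenSer (0.068 to 0.37), ratios of CPM of 1.23 and 1.18. These intervals are the widest of the family, since EIF2AK3 had 3.07% to 3.56% of the reads that the 4 kinases received together.

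EIF2AK4 (ENSG00000128829; chr15:40226316-40327792, plus strand, 39 merged exons), whose product is the sensor of amino acid shortage, stood at 115 and 111 CPM in control libraries, 106 and 105 CPM under GPNA, and 102 and 105 CPM under BenSer. Each treated library lay below both control libraries. The log2 difference was -0.10 with GPNA (-0.16 to -0.049) and -0.13 with BenSer (-0.18 to -0.073), which are ratios of CPM of 0.93 and 0.916. With TMM scaling these differences were smaller, at -0.064 and -0.080, with both intervals still below 0. EIF2AK1 (ENSG00000086232; chr7:6061878-6098806, minus strand, 18 merged exons) stood at 103 and 102 CPM in control libraries, 102 and 104 CPM under GPNA, and 107 and 109 CPM under BenSer. The GPNA and control libraries overlapped, with a log2 difference of -0.0019 (-0.058 to 0.054), so that no difference was detectable at this depth. With BenSer both libraries were above both control libraries, at a log2 difference of 0.070 (0.017 to 0.12), and this interval included 0 when BenSer library 2 (-0.0033 to 0.12) or control library 2 (-0.0027 to 0.13) was left out.

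Differences of this size were common among all genes, so the kinases were set against that background. With GPNA, 0 of the 4 kinases were at least 1.5-fold higher, against 0.34% of the 18828 genes tested, and 0 were at least 1.5-fold lower, against 0.0637%. Counting intervals lay above 0 for 2 kinases (EIF2AK2 and EIF2AK3), against 9.78% of all genes, and below 0 for 1 (EIF2AK4), against 20.1%. Whether an interval excludes 0 depends on the number of reads. Of the 18828 genes, 7905 averaged at least 10 CPM over both groups, as all 4 kinases did. The interval shares over all genes, here and below, were not matched for level. Both GPNA libraries were above both control libraries for 2 kinases, against 22.4% of all genes, and below them for 1, against 34.4%. The median log2 difference of all genes was -0.028, and the central 90% of genes lay between -0.28 and 0.27. EIF2AK2 lay above this range, EIF2AK3 (0.28) just past its upper edge, and EIF2AK1 and EIF2AK4 inside it.

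With BenSer, 1 of the 4 kinases, EIF2AK2, was at least 1.5-fold higher, against 1.96% of the 18976 genes tested, and 0 were 1.5-fold lower, against 1.58%. The interval lay above 0 for 3 kinases (18.2% of all genes) and below 0 for 1 (25.8%). The libraries did not overlap for any kinase: 3 were above the control, as were 28.5% of all genes, and EIF2AK4 was below it, as were 37.5%. All genes had a median of -0.028 and a central 90% from -0.43 to 0.39, a range that held every kinase except EIF2AK2. Both treatments were compared with the same control libraries, so a deviation of those libraries enters both sets of differences.

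**Figure D3:**
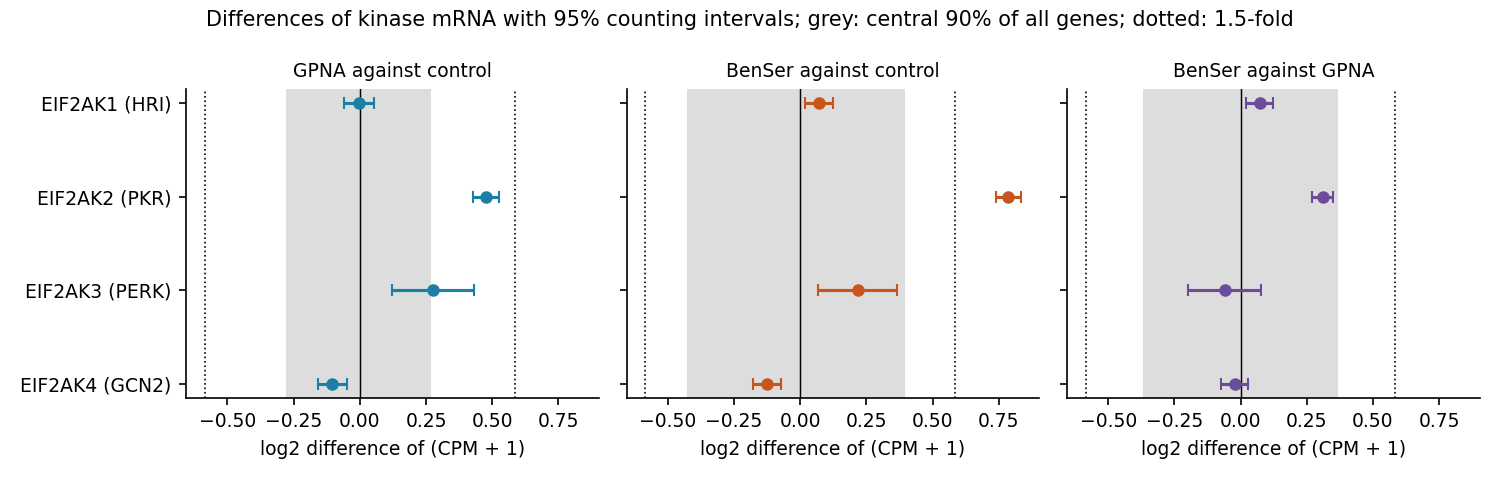
Log2 difference of CPM plus 1 for each kinase in the 3 comparisons; points are differences of group means, bars are 95% counting intervals on the merged reads, the grey band is the central 90% of all genes tested and dotted lines mark a 1.5-fold difference. EIF2AK2 lies outside the grey band against the control, at 0.48 with GPNA and 0.79 with BenSer, and EIF2AK3 with GPNA, at 0.28, lies just past its edge; the remaining points lie within it.

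BenSer and GPNA cells were also compared directly. EIF2AK2 was 1.24-fold higher with 10 mM BenSer than with 1 mM GPNA, at a log2 difference of 0.31 (0.27 to 0.35), and the libraries did not overlap. EIF2AK1 was also higher, at 0.072 (0.021 to 0.12), an interval that reached 0 without BenSer library 2 or without GPNA library 1. For EIF2AK3 the log2 difference was -0.060 (-0.20 to 0.077), and for EIF2AK4 it was -0.022 (-0.074 to 0.030). Neither was detectable at this depth, although both BenSer libraries were below both GPNA libraries for each. Of the 4 kinases, 0 were 1.5-fold higher (1.05% of 19056 genes) and 0 were 1.5-fold lower (0.813%). Intervals lay above 0 for 2 (21.2%) and below 0 for 0 (20.7%), and libraries were above for 2 (31.7%) and below for 2 (33.6%). The EIF2AK2 difference between the treatments thus fell inside the central 90% of all genes, which ran from -0.37 to 0.36.

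The makeup of the kinase family in reads was described next. In the control, EIF2AK2 held 33.3% of the reads of the 4 genes (exact 95% binomial interval 32.6% to 34.1%), EIF2AK4 33.2%, EIF2AK1 30.2% and EIF2AK3 3.22%. With GPNA the EIF2AK2 share was 41.7% (41.0% to 42.4%), and with BenSer it was 46.7% (46.1% to 47.3%). The shares of EIF2AK4 (27.7% and 24.6%) and EIF2AK1 (27.1% and 25.7%) were smaller than in the control, and that of EIF2AK3 was 3.56% and 3.07%. Shares sum to a fixed total, so they are not independent of each other. The summed CPM of the family was 340.4 in control cells, 379.7 under GPNA and 421 under BenSer.

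Levels were compared between the kinases per kb of merged exons (5492 bases for EIF2AK1, 11036 for EIF2AK2, 20691 for EIF2AK3 and 11988 for EIF2AK4). On this scale EIF2AK1 had the highest level in the control, at 18.7 CPM per kb (18.2 to 19.3). EIF2AK2 followed at 10.3 (10.0 to 10.6) and EIF2AK4 at 9.42 (9.17 to 9.68), and EIF2AK3 was far below at 0.53 (0.485 to 0.578). With GPNA, EIF2AK1 was at 18.7, EIF2AK2 at 14.3, EIF2AK4 at 8.77 and EIF2AK3 at 0.653 CPM per kb. With BenSer, EIF2AK2 at 17.8 (17.5 to 18.1) came close to EIF2AK1 at 19.7 (19.2 to 20.2), while EIF2AK4 stood at 8.63 and EIF2AK3 at 0.624. No neighbours in these orders had overlapping counting intervals. The order of EIF2AK2 and EIF2AK4 depended on the length used. Per kb of the longest transcript (10103 and 5538 bases), EIF2AK4 stood above EIF2AK2 in the control, at 20.4 against 11.2 CPM per kb, and with GPNA, at 19.0 against 15.7. With BenSer, EIF2AK2 was above EIF2AK4 on either length, at 19.4 against 18.7 per kb of the longest transcript. EIF2AK3 remained the lowest of the 4, at 2.32 to 2.86 CPM per kb of its longest transcript (4724 bases).

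Some exons of these genes overlap genes on the opposite strand. AIMP2, a scaffold of the aminoacyl-tRNA synthetase complex, shares 532 exon bases with EIF2AK1 (9.69% of the merged exons of EIF2AK1) and was at 19.5, 18.8 and 18.9 CPM in control, GPNA and BenSer cells. GPATCH11 shares 35 bases with EIF2AK2, and 401 further bases lie under a pseudogene, ARL14EPP1. A long non-coding RNA shares 781 bases with EIF2AK3. The libraries were made with a stranded kit, but whether reads were counted by strand is not given in the sources used here, so reads from these stretches could belong to either gene.

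The genes nearest in pattern to each kinase were found among 7924 genes with a mean of at least 10 CPM, by the distance between their log2 differences with GPNA and BenSer. Since only 3 groups enter, the pattern has 2 values and many genes can match by coincidence. Nearest to EIF2AK2 was TENM4, a teneurin (differences of 0.48 and 0.82), followed by NEBL (0.44 and 0.75), which encodes a nebulin-type actin-binding protein, and TRIM21 (0.42 and 0.75), an interferon-inducible antibody receptor and ubiquitin ligase. EIF2AK2 had no very close neighbour, as its distance to TENM4 was 0.038 against 0.0011 to 0.0044 for the nearest gene of the other kinases. Nearest to EIF2AK3 were GSTM4, DAAM1 and ATG16L1, nearest to EIF2AK4 were AGPAT1, RDH13 and PRKCI, and nearest to EIF2AK1 were DYNLRB1, MCFD2 and FAM107B.

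Interferon-stimulated genes were examined beside EIF2AK2, as it belongs to that class. All 12 genes listed had counting intervals above 0 with GPNA and with BenSer, and in all 12 both treated libraries lay above both control libraries. Over all genes, intervals lay above 0 for 9.78% with GPNA and 18.2% with BenSer, and both libraries lay above for 22.4% and 28.5%. At least 1.5-fold higher were 8 of 12 with GPNA and 11 of 12 with BenSer, against 0.34% and 1.96% of all genes. Over the list, the median difference was 0.71 (GPNA) and 1.18 (BenSer), against -0.028 over all genes in each comparison. MX1, which encodes an antiviral GTPase, stood at 36.9 and 38.3 CPM in control libraries, 106 and 111 CPM under GPNA, and 194 and 198 CPM under BenSer. Its log2 differences of 1.505 and 2.35 were the highest of the list. OAS2, which makes the 2-5A messenger that activates RNase L, had log2 differences of 1.23 and 1.96. IFIH1 and DDX58, which encode the double-stranded RNA sensors MDA5 and RIG-I, had differences of 0.76 and 0.66 with GPNA and of 1.30 and 1.13 with BenSer.

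IFIT2 had the lowest difference of the list with GPNA (0.44) and IRF9, at 1.94 to 3.37 CPM, the lowest with BenSer (0.33). The difference of EIF2AK2 was smaller than that of 11 of the 12 genes in each comparison with the control. The summed level of the list was 480.2 and 478 CPM in control libraries, 821 and 823 CPM under GPNA, and 1257 and 1259 CPM under BenSer. The list moved with EIF2AK2, and its part in the EIF2AK2 difference was not tested. The list was chosen with values of such genes in these libraries already known, so that its direction is no independent evidence.

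The direct partners of each kinase were then considered. Of the 3 partners of PKR, ADAR, the RNA-editing enzyme that limits its activation by double-stranded RNA, stood at 276 and 277 CPM in control libraries, 304 and 303 CPM under GPNA, and 397 and 407 CPM under BenSer, at log2 differences of 0.13 (0.098 to 0.17) and 0.54 (0.51 to 0.57). PRKRA, which encodes the PKR activator PACT, had 0.026 (-0.090 to 0.14) with GPNA and -0.25 (-0.37 to -0.14) with BenSer. TARBP2, an inhibitor of PKR, had -0.084 and -0.049, with intervals that included 0. None of the 3 differed by 1.5-fold against the control, a size that few of all genes reached. With GPNA 0.34% of all genes were 1.5-fold higher and 0.0637% lower, and with BenSer 1.96% and 1.58%.

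Of the partners of PERK, HSPA5, the endoplasmic reticulum chaperone BiP that holds PERK inactive, stood at 232 and 236 CPM in control libraries, 273 and 272 CPM under GPNA, and 247 and 244 CPM under BenSer. Its log2 difference was 0.22 (0.18 to 0.26) with GPNA and 0.068 (0.033 to 0.10) with BenSer. DNAJC3, which encodes the kinase inhibitor P58IPK, had 0.12 with GPNA and 0.26 with BenSer. Of the other sensors of endoplasmic reticulum stress, ERN1, which encodes IRE1, stood at 14.3 and 16.1 CPM in control libraries, 19.0 and 18.3 CPM under GPNA, and 23.2 and 25.1 CPM under BenSer. Its difference with BenSer, 0.63 (0.51 to 0.76), was 1.5-fold, and with GPNA it was 0.28 (0.14 to 0.41). ATF6 had 0.071 and 0.18, and ATF6B -0.016 and 0.31, with GPNA and BenSer.

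GCN2 is activated through GCN1, listed as GCN1L1, and opposed by IMPACT. GCN1L1 had a log2 difference of -0.10 (-0.14 to -0.066) with GPNA and -0.034 with BenSer, the upper bound of which lay just below 0. IMPACT stood at 18.9 and 17.5 CPM in control libraries, 21.7 and 20.5 CPM under GPNA, and 15.0 and 14.5 CPM under BenSer. Its libraries lay above the control with GPNA, at 0.20 (0.080 to 0.33), and below it with BenSer, at -0.28 (-0.41 to -0.16). Of the 5 genes around HRI, the mitochondrial stress relay KIAA0141 (DELE1) had -0.23 and -0.17, and OMA1, the protease that cleaves DELE1, had 0.21 (0.036 to 0.38) and 0.13 (-0.038 to 0.30). The chaperone genes HSP90AA1 (-0.32 and -0.14), HSP90AB1 (-0.12 with each) and HSPA8 (-0.11 and -0.20), whose products help HRI to mature, were lower with both treatments, with intervals below 0. Intervals lay below 0 for 20.1% of all genes with GPNA and for 25.8% with BenSer. No gene of these GCN2 or HRI lists differed by 1.5-fold against the control. Few of all genes did: 0.34% were higher and 0.0637% lower with GPNA, and 1.96% and 1.58% with BenSer.

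The substrate and the machinery around it were examined next. Of the eIF2 subunits, EIF2S1, which encodes the phosphorylated alpha subunit, stood at 139 and 136 CPM in control libraries, 132 and 129 CPM under GPNA, and 114 and 117 CPM under BenSer. Its log2 difference was -0.074 (-0.12 to -0.025) with GPNA and -0.25 (-0.30 to -0.21) with BenSer. EIF2S3, the gamma subunit, had -0.052 and -0.33, and EIF2S2, the beta subunit, -0.0017 and 0.030, with both intervals of EIF2S2 including 0. The median over the 5 eIF2B subunits was -0.13 with GPNA and -0.093 with BenSer. EIF2B4 had the lowest difference with GPNA (-0.27) and EIF2B3 with BenSer (-0.52). Of the 5 genes of the eIF2-alpha phosphatases, PPP1R15A, the stress-inducible subunit GADD34, was higher with GPNA (0.17, 0.088 to 0.25) and BenSer (0.25, 0.17 to 0.33). Its constitutive relative PPP1R15B had -0.017 (-0.076 to 0.042) and 0.23 (0.18 to 0.28), and PPP1CC, a catalytic subunit, had -0.18 and -0.30. Of these 13 genes, none was past 1.5-fold against the control. Over all genes, 0.34% were 1.5-fold higher and 0.0637% lower with GPNA, and 1.96% and 1.58% with BenSer.

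The stress-response effectors comprise transcription factors and other genes known to respond to eIF2-alpha phosphorylation. Of 10 listed genes, 9 had intervals above 0 with each treatment and 1, the transcription factor gene ATF5, had intervals below 0 (-0.37 and -0.17). Of all genes, 9.78% and 18.2% had intervals above 0 with GPNA and BenSer, and 20.1% and 25.8% had intervals below 0. At least 1.5-fold higher were 5 with GPNA and 6 with BenSer, against the same 0.34% and 1.96% of all genes, and the medians were 0.60 and 0.79. CHAC1, a glutathione-degrading enzyme, stood at 3.83 and 3.99 CPM in control libraries, 7.60 and 7.86 CPM under GPNA, and 11.1 and 11.6 CPM under BenSer, at differences of 0.83 and 1.33. ASNS, asparagine synthetase, had 0.71 (0.62 to 0.80) and 1.18 (1.09 to 1.27). NUPR1, a chromatin-associated stress protein, had 0.64 and 1.27, and SESN2, a leucine-sensing regulator of mTORC1, 0.80 and 0.87. TRIB3, a pseudokinase that restrains ATF4, had 0.63 with GPNA and 0.47 with BenSer. DDIT3, which encodes CHOP, had 0.58 and 0.81, and DDIT4, an inhibitor of mTORC1, 0.33 and 0.77. Part of this list was seen in these data before it was chosen, so its direction is not independent evidence.

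**Figure D4:**
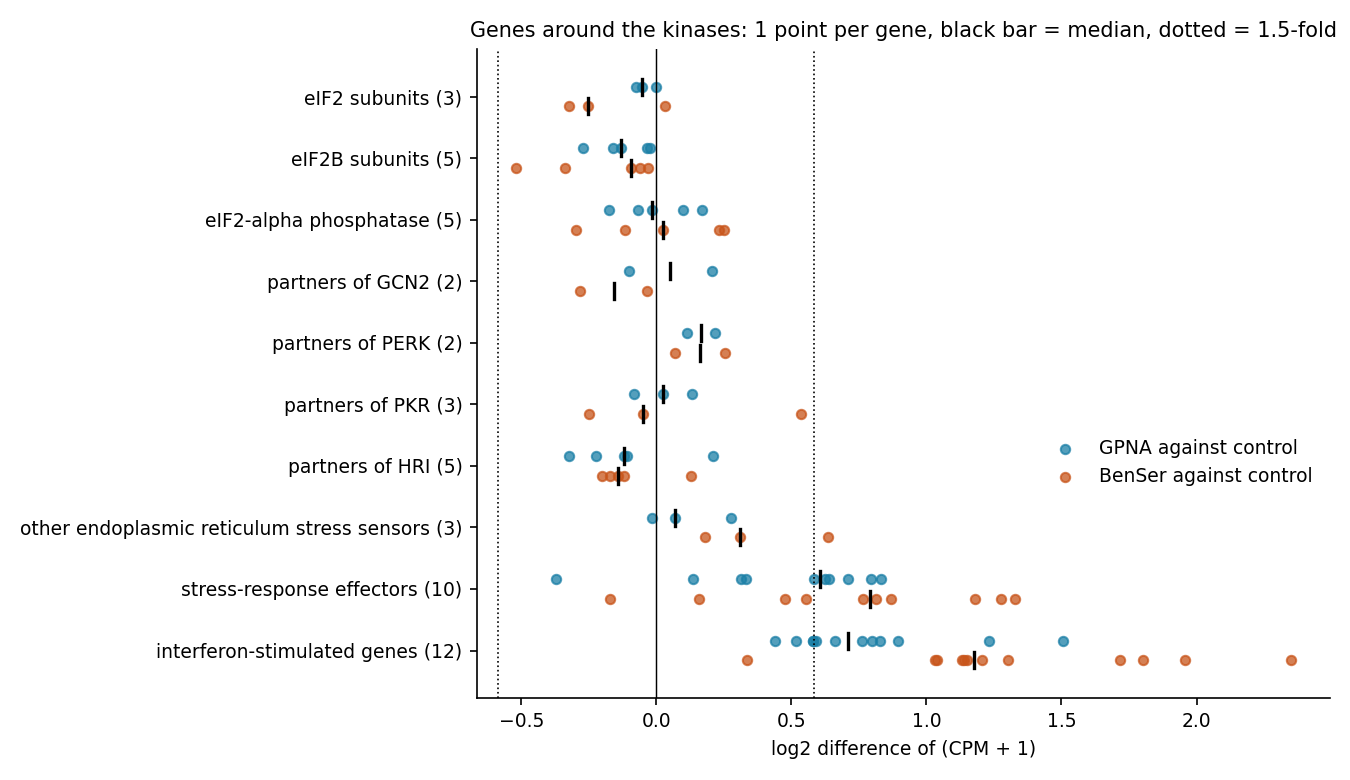
Log2 differences of CPM plus 1 against the control for the genes around the kinases, 1 point per gene, by list with the number of genes in parentheses; black bars are list medians and dotted lines mark 1.5-fold. The stress-response effectors (medians 0.60 with GPNA and 0.79 with BenSer) and interferon-stimulated genes (0.71 and 1.18) lie to the right. The other endoplasmic reticulum stress sensors have medians of 0.071 and 0.31. Medians of the eIF2, eIF2B, phosphatase and partner lists lie between -0.25 and 0.17, while single genes of these lists reach -0.52 (EIF2B3) and 0.54 (ADAR) with BenSer.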

How the data were processed

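PC-3 total RNA libraries were prepared by the authors with a stranded kit, and the paired-end reads were trimmed, mapped to hg19/GRCh37.p13 with TopHat2 and counted per gene. The submitters' processing notes also name Bowtie2, HTSeq 0.6.2p2 and DESeq. The values deposited by the authors are CPM, reads divided by the library total. Of 116946 values, 100% gave whole reads (tolerance 0.01 read). The 2 tables also hold the authors' fold changes, p-values and false discovery rates, which were not used. In them, 8 column entries (6 distinct) match no sample label. They were seen when the tables were opened, and EIF2AK2 did not follow the direction of the labelled libraries in all of them, but they were not analysed here.

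Within a group, libraries were near pure read sampling (chi-square per degree of freedom under 1.2, over genes whose 2 libraries held 20 or more reads), so they were merged. Differences in log2(mean CPM + 1) were given wherever either group averaged 5 reads or more. The groups have 1 sample each, so no treatment was tested. The study's methods describe exact tests on more replicates per group than the 2 labelled libraries. Whether the unlabelled columns hold those further replicates is not known. The study reported EIF2AK3 as significantly increased by both compounds, and that result was not checked here. Intervals are Clopper-Pearson at 95%. Library-level calls, which compare libraries and not treatments, came from limma 3.58.1 on log2(CPM + 1) with Benjamini-Hochberg adjustment in R 4.3.3, and the alternatives on recovered reads were DESeq2 1.42.0 and edgeR 4.0.16. The scripts were tested on simulated data. Alternatives covered pseudocount, scaling, filter, transcript length and single libraries. The length of the canonical transcript was chosen after seeing the data.

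The replicate numbers were checked for pairing: over 10618 genes, deviations of same-numbered libraries had correlations of 0.013 to 0.035. Deviations within a group were mostly read sampling, which keeps such correlations small, so this check cannot show whether same-numbered libraries were paired.

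Exon lengths came from GENCODE (18931 of 19491 identifiers matched) and promoter windows from RefSeq. Named genes were the 4 kinases, listed genes past 1.5-fold or at a list's extremes, any gene of the partner, eIF2, eIF2B and phosphatase lists, and the 3 nearest patterns of each kinase, together with cell type markers and genes whose exons overlap a kinase. Some listed genes are not reported here by name. The kinases and lists were chosen with earlier results of these data known. Python 3.11.15, pandas 2.3.3, scipy 1.17.1 and matplotlib 3.10.9 were used.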

Additional observations from a re-analysis of the deposited data

Results flagged for a closer look

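For 2 of the 56 listed genes around the kinases, every GPNA library lay on one side of both control libraries and every BenSer library on the other side. IMPACT, the inhibitor of GCN2 activation, differed by 0.20 (GPNA) and -0.28 (BenSer) on the log2 scale, and PPP1R15B, the constitutive phosphatase subunit, by -0.017 (GPNA) and 0.23 (BenSer). The interval of PPP1R15B with GPNA included 0. This pattern was seen in 9.35% of the 18588 genes that passed the filter in both comparisons, so it was not more frequent among the listed genes (3.57%), and it was seen in 0 of the 4 kinases. These opposite directions were not tested against replicate spread, as each group counts as 1 sample, and the doses differed.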

How the results depend on the processing

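Of 108 alternative values of the kinase differences, 107 stayed within the counting interval of the reported value and 1 did not: EIF2AK2 with BenSer against control was 0.83 with DESeq2 size factors. None of the 4 kinases reversed a difference whose interval excluded 0. EIF2AK1 with GPNA, whose interval included 0 throughout, was 0.037 with TMM scaling, 0.036 with DESeq2 size factors and 0.028 with scaling to listed genes. EIF2AK1 with BenSer was 0.116 with TMM scaling and 0.117 with DESeq2 size factors. EIF2AK4 was -0.064 (GPNA) and -0.080 (BenSer) with TMM scaling, and -0.066 and -0.078 with DESeq2 size factors. The size of these small differences thus depended on the scaling. In 4 alternatives, all leaving out 1 library, an EIF2AK1 interval with BenSer came to include 0. By length of the longest or of the canonical transcript, EIF2AK4 ranked 2 and EIF2AK2 ranked 3 in control and GPNA.

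Counts over all genes depended on the pseudocount. With 0.1 CPM, 879 genes were 1.5-fold higher and 652 lower with GPNA, 1205 and 1397 with BenSer, and 930 and 1243 in BenSer against GPNA. With 5 CPM these were 29 and 2, 171 and 102, and 79 and 38. Leaving out single libraries gave 23 to 27 lower genes for GPNA, where all libraries gave 12.

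Calls by limma between libraries (adjusted p threshold 0.05) numbered 4017 with GPNA (1244 higher, 2773 lower), 7075 with BenSer (2943 and 4132) and 6417 between the treatments. DESeq2 gave 1257, 4167 and 3661, and edgeR 3162 (1466 and 1696), 7014 (3585 and 3429) and 6614. Without single libraries the limma counts were 2454 to 3287, 5148 to 6720 and 4383 to 6371; with GPNA they were 2471 without GPNA library 1 and 2454 without GPNA library 2. The same fit with the replicate number as a block gave 4016, 7103 and 6431. The labels describe no pairing, and whether same-numbered libraries were handled together is not known. EIF2AK3, with 508 control reads, had the widest counting intervals of the 4 kinases.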
